A study of Mus musculus with 6 samples.

Results

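Poly(A)-primed RNA of whole testis from male C57/BL6 mice was measured on 1-colour arrays that carry probes for long noncoding RNAs and for mRNAs. Each age was represented by 3 arrays, each from a separate pool of mice. The 75th percentile of signal per array ranged from 747.9 to 2947, and between 65.9% and 69.8% of probes lay well above background. The question asked here was how mRNA of the collagen and laminin chains differed between the testis at 6 days and at 8 weeks. The collagens were split into fibrillar chains and others, and type IV collagen was placed with the laminins as basement membrane. Of 19053 genes named from mRNA probes, 50 were chains of these families: 11 fibrillar collagens, 17 basement membrane chains and 22 other collagens.

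Collagens are secreted as chains wound around one another, and the fibrillar types carry the load of the interstitial matrix. Type IV collagen and the laminins form the sheet of basement membrane under the seminiferous epithelium and around blood vessels. In the testis, Sertoli cells and peritubular myoid cells face each other across that sheet.

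Many more of these chains were lower than higher in the testis at 8 weeks. Of 38 genes that could be tested, 19 were called lower, 3 were called higher (7.89%) and 16 were not called at 5-fold and an adjusted p of 0.05. Of all mRNA probes tested, 13.7% were called lower and 12.6% higher in the same comparison. The largest decrease was in Col9a2, a chain of type IX collagen, at 72.1-fold lower, and the largest increase was in Col2a1, the main fibrillar chain of cartilage, at 31.5-fold higher. Lamb3 and Col19a1 were the other two genes called higher. Col1a2, Col3a1, Col4a1 and Lamb1, chains of the most widespread collagens and laminins, were each called lower.

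Outlier-flagged spots left another 10 genes without the 2 complete pairs of arrays that the test needed. With flagged spots kept, 9 of these 10 were called lower, and Lama5 was not called. That fit called 28 of 48 genes lower (58.3%) and 3 higher, where 15.4% of all mRNA probes were called lower and 12.8% higher. Col10a1 and Col28a1 were not well above background on any array and were not tested. At a threshold of 2-fold, 25 genes were lower and 4 higher, beside 36.6% and 23.3% of all mRNA probes. The median log2 change of the 38 tested genes was -2.37, against -0.40 for all tested mRNA probes, so the members lay -1.97 from that median. Leaving out replicate 1 or 2 left 18 or 17 testable genes, with medians of -0.84 and -1.27 that lay -0.59 and -1.06 from those of all mRNA probes. Leaving out replicate 3 gave -2.63 and a distance of -2.23. With spots kept, the median over 48 genes was -2.94 against -0.50, and leaving out each pair in turn gave -2.99, -2.97 and -2.80.

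The 3 arrays of the 2 ages did not overlap for 42 of the 48 genes, of which 38 were lower and 4 higher at 8 weeks. Among all mRNA probes above background, 45.7% lay wholly lower and 26.9% wholly higher at 8 weeks. Arrays of replicates 1 and 2 of both ages were scanned together, and those of replicate 3 in another scan. Within the first scan, the median differences of the 48 genes were -2.68 and -2.78 for replicates 1 and 2, and within the other scan the median was -3.02. The 8-week array was the lower one for 40, 40 and 41 of the 48 genes. With scan as the block in place of replicate, 19 genes were again called lower and 3 higher. Leaving out replicate 1 or replicate 2 gave 6 genes called lower each time, because 13 called genes then lacked 2 complete pairs. Leaving out replicate 3 gave 19, but the fits of 13 of these genes already lacked replicate 3 because of flagged spots. Of the 38 tested genes, 21 were tested on 2 pairs of arrays and 17 on 3 pairs. This small number of arrays limits the precision of each change and of its error. In bulk tissue, fewer cells of a type and less RNA per cell cannot be told apart.

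Values below are log2 of a probe's signal over the 75th percentile of its array, in the order of replicates 1 to 3, with a floor at -7.22. Changes are 8 weeks minus 6 days with replicate as a block, and the number of pairs left after flagged spots were removed or kept is given with each. The array values include flagged spots.

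The fibrillar class had 11 genes, of which 9 were tested: 5 were called lower (55.6%), 1 higher, and 3 were not called. With spots kept, 7 of 11 were lower (63.6%), and the median change was -4.09. Over the 9 genes tested without flagged spots it was -3.01. The median differences of replicates 1 to 3 were -3.93, -3.90 and -4.33. Col1a1 (NM_007742), a chain of type I collagen, the main fibre of connective tissue, read 5.93, 5.71 and 5.29 at 6 days and 2.00, 1.81 and 0.86 at 8 weeks. Its partner Col1a2 (NM_007743) read 4.05, 3.88 and 4.82 at 6 days and -0.04, -0.24 and 0.17 at 8 weeks. Col3a1 (NM_009930), which forms type III collagen of extensible tissues, read 2.30, 2.07 and 2.79 at 6 days and -2.28, -2.58 and -2.14 at 8 weeks. All 3 genes were high at 6 days and lower at 8 weeks, with no overlap between the ages. Col1a2 changed by -4.11 ± 0.14 (SE, 2 pairs, adjusted p = 0.000425), which is 17.2-fold lower, and Col3a1 by -4.61 ± 0.14 (SE, 2 pairs, adjusted p = 0.000349), which is 24.5-fold lower. Col1a1 had flagged spots on 2 of the 6-day arrays. With these kept it changed by -4.09 ± 0.16 (SE, 3 pairs, adjusted p = 8.18e-05), or 17.0-fold lower.

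Type V collagen, which takes part in starting fibrils and setting their width, was lower in all of its chains. Col5a1 (NM_015734) read 1.74, 1.62 and 2.14 at 6 days and -2.59, -2.74 and -2.19 at 8 weeks. Col5a2 (NM_007737) read -0.59, -0.50 and -2.71 at 6 days and -5.91, -6.66 and -7.22 at 8 weeks. Col5a3 (NM_016919) read -2.68, -2.36 and -2.87 at 6 days and -7.22, -7.22 and -7.22 at 8 weeks, where it lay on the floor. None of these probes overlapped between the ages. Col5a1 changed by -4.34 ± 0.14 (SE, 2 pairs, adjusted p = 0.000382). Col5a3 was at least 18.4-fold lower, because the 8-week signal was not above background, and this call was lost with normexp correction. Normexp also lost the calls of Lamc3, Col7a1 and Col19a1 given below. Col5a2 was called lower with spots kept (3 pairs, adjusted p = 0.000272). It was well above background on only 1 of the 8-week arrays and on the floor on another, so no exact size is given. Col11a1, a chain of type XI collagen, read -0.67, -0.88 and -0.59 at 6 days and -3.80, -3.77 and -4.06 at 8 weeks, and its change was -3.01 ± 0.15 (SE, 2 pairs, adjusted p = 0.000934). Col24a1, Col27a1 and Col11a2 were not called, with log2 values of -1.88, -0.77 and -0.11.

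Col2a1 ran the other way. Its probe for NM_031163 read -2.81, -2.88 and -3.17 at 6 days and 2.22, 2.04 and 2.32 at 8 weeks, low and close together at 6 days and far above that at 8 weeks without overlap. The change was 4.98 ± 0.14 (SE, 2 pairs, adjusted p = 0.000312). The other probe of Col2a1, for NM_001113515, gave 4.94.

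The basement membrane class had 17 genes, all above background on at least 1 array. Of 10 tested, 6 were called lower (60.0%), 1 higher and 3 were not called, and 7 lacked complete pairs. With spots kept, 12 of 17 were lower (70.6%), the median change was -2.97, and no gene overlapped between the ages. The median differences of replicates 1 to 3 were -2.71, -2.87 and -3.00.

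Col4a1 and Col4a2 encode the chains of the type IV collagen found in nearly all basement membranes. Col4a1 (NM_009931) read 2.82, 3.00 and 3.74 at 6 days and -0.23, -0.26 and 0.38 at 8 weeks. Col4a2 (NM_009932) read 4.64, 4.56 and 4.48 at 6 days and 1.52, 1.35 and 0.79 at 8 weeks. Both were high at 6 days and lower on every 8-week array. Col4a1 changed by -3.22 ± 0.12 (SE, 3 pairs, adjusted p = 0.000159), 9.33-fold lower, and Col4a2, with spots kept, by -3.34 ± 0.16 (SE, 3 pairs, adjusted p = 0.000135), 10.1-fold lower. Of the type IV chains with a narrower spread over tissues, Col4a3 (NM_007734) read 3.57, 3.44 and 3.81 at 6 days and 0.86, 1.07 and 1.43 at 8 weeks. Col4a5 (NM_007736) averaged 1.21 ± 0.51 at 6 days and -1.19 ± 0.60 at 8 weeks (SD, n = 3). Col4a6 (NM_053185) read -1.10, -1.11 and -0.84 at 6 days and -3.50, -4.56 and -4.28 at 8 weeks. The 8-week arrays were lower for each, without overlap. With spots kept, Col4a3 changed by -2.48 ± 0.13 (SE, 3 pairs, adjusted p = 0.000172) and Col4a5 by -2.40 ± 0.12 (SE, 3 pairs, adjusted p = 0.000145). These changes, 5.59-fold and 5.29-fold, lay close to the limit of 5-fold. Flagged spots lay on 5 arrays for Col4a5 and on 3 each for Col4a3 and Col4a2. Col4a6 was tested in the fit without flagged spots and changed by -2.92 ± 0.33 (SE, 2 pairs, adjusted p = 0.00506), a call that was lost under several alternatives. Col4a4 (NM_007735) lay near the floor at both ages, at -6.05, -6.42 and -7.15 at 6 days and -7.22, -7.22 and -7.22 at 8 weeks, and was not called.

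Among the laminin alpha chains, Lama1 (NM_008480), known from early embryonic and epithelial basement membranes, read 3.14, 3.20 and 2.99 at 6 days and 0.48, 0.52 and 0.47 at 8 weeks. Lama2 (NM_008481), the alpha chain of muscle laminin, read 3.65, 3.76 and 3.95 at 6 days and 0.32, 0.70 and 0.79 at 8 weeks. Lama4 (NM_010681), known from vessel walls, read -2.05, -1.88 and -2.72 at 6 days and -5.40, -5.80 and -5.76 at 8 weeks. All were lower at 8 weeks on every array. Lama1 changed by -2.67 ± 0.14 (SE, 2 pairs, adjusted p = 0.000963). Every spot of Lama2 was flagged, and with spots kept it changed by -3.19 ± 0.12 (SE, 3 pairs, adjusted p = 7.81e-05). Lama4 had flagged spots on 2 arrays, and with these kept it changed by -3.44 ± 0.21 (SE, 3 pairs, adjusted p = 0.000226). Lama5 (NM_001081171), an alpha chain widespread in adult tissue, read 2.10, 2.07 and 1.59 at 6 days and 0.23, 0.31 and 0.26 at 8 weeks. It was also lower without overlap, but at -1.66 with spots kept it did not reach 5-fold.

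The beta and gamma chains of most laminins differed in size of change. Lamb1 (NM_008482) read 4.37, 4.45 and 5.05 at 6 days and 0.77, 0.70 and 1.40 at 8 weeks. Lamb2 (NM_008483) read 3.33, 3.25 and 3.45 at 6 days and 1.40, 1.20 and 1.58 at 8 weeks. Lamc1 (NM_010683) read 0.86, 0.96 and 1.42 at 6 days and -2.83, -3.38 and -3.33 at 8 weeks. Each was lower on all 8-week arrays. Lamb1 was 12.8-fold lower, at -3.67 ± 0.14 (SE, 2 pairs, adjusted p = 0.000562). Lamc1 had flagged spots on all 3 of the 6-day arrays. With these kept it was 19.2-fold lower, at -4.26 ± 0.24 (SE, 3 pairs, adjusted p = 0.000187). Lamb2 lay under the 5-fold limit, at -1.99 ± 0.14 (SE, 2 pairs, adjusted p = 0.00185).

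Lama3 and Lamb3 belong to the laminin that anchors epithelia such as skin. Lama3 (NM_010680) read 1.51, 1.84 and 1.51 at 6 days and -1.32, -1.51 and -1.93 at 8 weeks. Lamb3 (NM_008484) read -6.75, -6.17 and -6.10 at 6 days and -0.71, -0.84 and -2.05 at 8 weeks. Lama3 was lower and Lamb3 higher at 8 weeks, both without overlap. Lama3 changed by -3.08 ± 0.20 (SE, 2 pairs, adjusted p = 0.00152) and Lamb3 by 4.69 ± 0.39 (SE, 2 pairs, adjusted p = 0.00253), which is 25.9-fold higher. With spots kept Lamb3 was 35.3-fold higher, at 5.14 ± 0.41 (SE, 3 pairs, adjusted p = 0.000504). Its call was lost with no filter on dim probes and with the test of the methods, which Lama3 did not pass either. Lamc3, a gamma chain described at the contact of Sertoli cells with elongating spermatids, read -4.20, -4.35 and -4.22 at 6 days and -7.22, -7.22 and -7.22 at 8 weeks. It was called at least 5.98-fold lower.

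**Figure D1:**
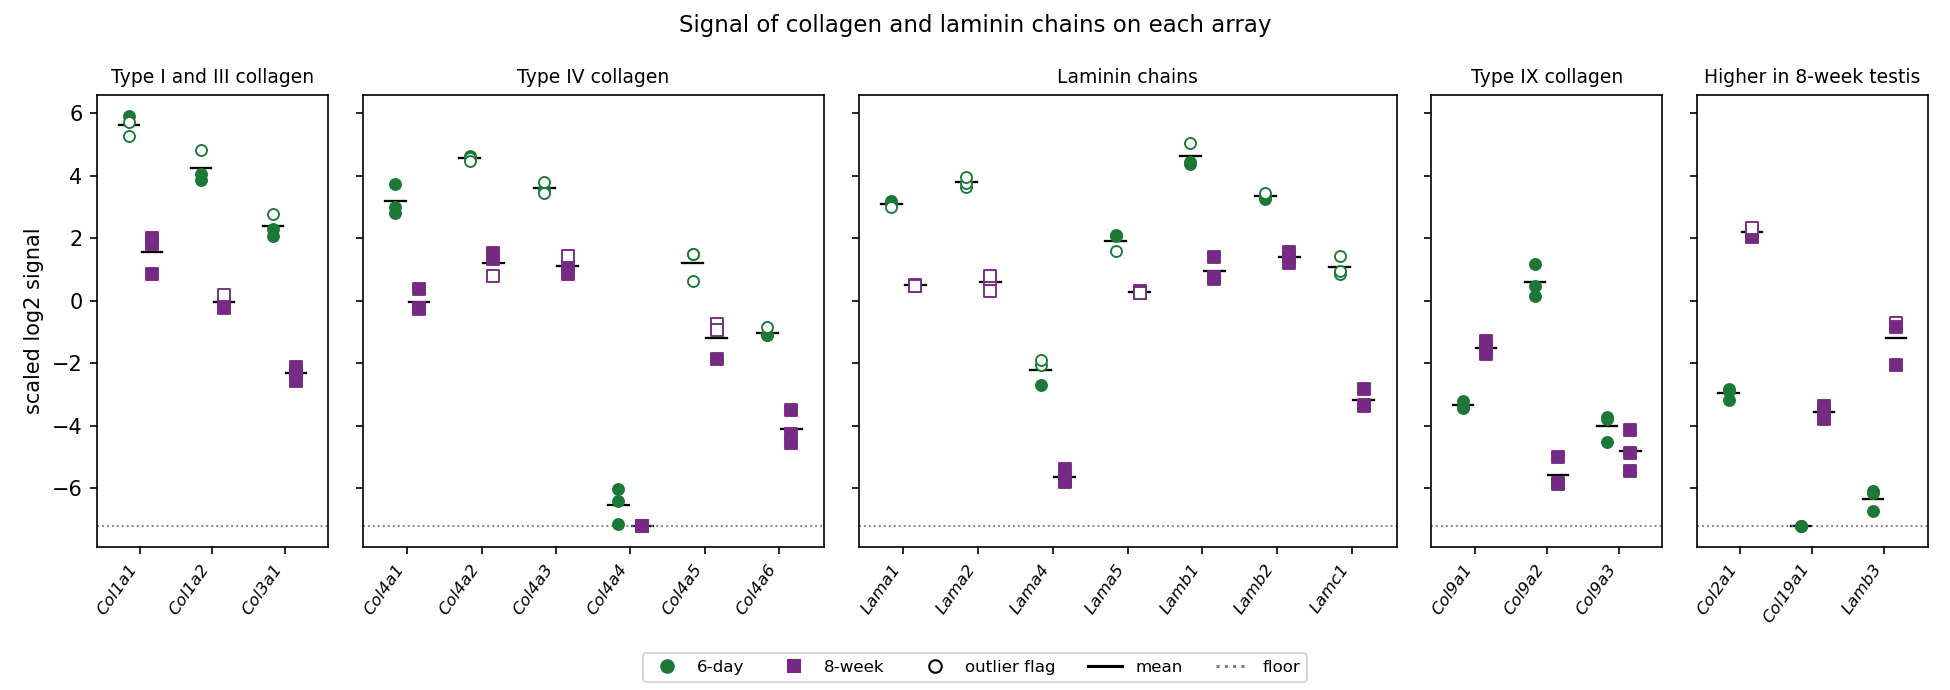
Scaled log2 signal on each array for named fibrillar, basement membrane and type IX chains at 6 days and 8 weeks.

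The other collagens had 22 genes. Of 19 tested, 8 were called lower (42.1%), 1 higher and 10 were not called, while 1 lacked complete pairs and 2 were not above background. With spots kept, 9 of 20 were lower (45.0%) and the median change was -1.94. The median differences of replicates 1 to 3 were -1.71, -2.54 and -1.88.

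Type IX collagen sits on the surface of cartilage fibrils and is built from Col9a1, Col9a2 and Col9a3, and these genes parted ways. Col9a1 (NM_007740) read -3.43, -3.22 and -3.40 at 6 days and -1.71, -1.30 and -1.51 at 8 weeks. Col9a2 (NM_007741) read 0.47, 0.16 and 1.16 at 6 days and -5.83, -5.88 and -5.02 at 8 weeks. Col9a3 (NM_009936) read -3.74, -3.78 and -4.54 at 6 days and -4.87, -4.14 and -5.47 at 8 weeks. Col9a1 was higher at 8 weeks without overlap, Col9a2 was far lower without overlap, and the values of Col9a3 overlapped. Col9a2 changed by -6.17 ± 0.11 (SE, 3 pairs, adjusted p = 8.19e-05). Col9a1 stood at 1.84 ± 0.11 (SE, 3 pairs, adjusted p = 0.000386), under the 5-fold limit, and Col9a3 was not called (-0.81). The related Col19a1 (NM_007733) read -7.22, -7.22 and -7.22 at 6 days and -3.79, -3.54 and -3.37 at 8 weeks, on the floor at 6 days and above it on each 8-week array. It was called at least 11.8-fold higher. Col14a1 (-1.10) and Col16a1 (0.77) of the same fibril-associated family were not called, so that 1 of its 6 genes was lower (16.7%) and 1 higher. These counts lay near the shares over all mRNA probes, 13.7% lower and 12.6% higher.

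Of 7 network and beaded collagens, 3 were called lower. Col6a2 (NM_146007), of the beaded filaments of type VI collagen, read 3.13, 2.91 and 3.96 at 6 days and -1.39, -1.62 and -0.93 at 8 weeks. Col8a2 (NM_199473), of a sheet-forming collagen, averaged -0.89 ± 0.29 at 6 days and -5.21 ± 0.41 at 8 weeks (SD, n = 3). Both were lower at 8 weeks with no overlap, at -4.52 ± 0.14 (SE, 2 pairs, adjusted p = 0.000354) and -4.30 ± 0.20 (SE, 2 pairs, adjusted p = 0.000792). Col6a1 was lower too, at -3.55 ± 0.18 (SE, 2 pairs, adjusted p = 0.000939). Col6a4 (-2.08), Col6a6 (0.37) and Col8a1 (-0.15) were not called, nor was the other probe of Col6a6.

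Of 4 transmembrane collagens, 2 were called lower. Col23a1 (NM_153393) read -1.92, -1.94 and -3.06 at 6 days and -6.99, -7.22 and -7.22 at 8 weeks, and it was called at least 23.0-fold lower. Col13a1 was lower at -3.49 ± 0.11 (SE, 3 pairs, adjusted p = 0.000136), while Col17a1, a part of hemidesmosomes, and Col25a1 (0.22) were not called. Col17a1 read -6.62, -7.22 and -7.22 at 8 weeks, mostly on the floor, so no exact size is given. It was called lower with no floor, with quantile scaling and with the authors' values. Col18a1, the precursor of endostatin, read 3.64, 3.31 and 3.26 at 6 days and -0.09, -0.42 and -0.91 at 8 weeks with its probe for NM_001109991. It was lower without overlap, at -3.73 ± 0.14 (SE, 2 pairs, adjusted p = 0.000507). Its relative Col15a1, with flagged spots on 4 arrays, was lower with spots kept (-3.51). Col7a1, which forms anchoring fibrils, was at least 5.75-fold lower, and Col26a1 (-0.60) was not called.

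Several chains lie side by side in the RefSeq gene order. In 4 such neighbouring pairs both genes were called lower with spots kept: Col3a1 and Col5a2, Col6a1 and Col6a2, Col4a1 and Col4a2, and Col4a5 and Col4a6. Other neighbours differed. Col4a3 was lower (-2.48) and Col4a4 was not called. Col19a1 was higher and Col9a1 lay under the 5-fold limit (1.84).

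RefSeq promoter windows, from 250 bases before a start to 50 after it, were held for 37 of the 50 genes as 41 windows. The hexamer GGGCGG, the core of the Sp1 site, occurred on either strand in 61.0% of these windows and in 35.7% of 32851 windows of all genes. It occurred in 77.3% of 22 windows of 20 genes called lower with spots kept and in 42.1% of the 19 remaining windows, of 17 genes. TATAAA occurred in 12.2% of the member windows and 13.6% of all windows, and CCAAT in 34.1% and 37.4%. The median GC content was 59.7% for members and 52.7% for all. It was 62.0% for the windows of genes called lower and 59.0% for the remaining member windows. Whether the hexamer followed GC content was not tested.

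The bases before the start of 4 named genes follow, from build GRCm38.p6 and with motif matches on either strand in capitals. Col1a2, on the + strand at chr6:4505368-4505617, has 2 matches of GGGCGG and 1 of CCAAT.
Col1a2: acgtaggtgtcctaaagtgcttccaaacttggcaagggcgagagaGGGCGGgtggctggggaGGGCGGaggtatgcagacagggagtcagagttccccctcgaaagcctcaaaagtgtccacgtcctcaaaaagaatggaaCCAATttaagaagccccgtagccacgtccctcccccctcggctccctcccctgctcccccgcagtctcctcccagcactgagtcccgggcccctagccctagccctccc
Col3a1, on the + strand at chr1:45311288-45311537, has 1 TATAAA and a GC content of 35.2%.
Col3a1: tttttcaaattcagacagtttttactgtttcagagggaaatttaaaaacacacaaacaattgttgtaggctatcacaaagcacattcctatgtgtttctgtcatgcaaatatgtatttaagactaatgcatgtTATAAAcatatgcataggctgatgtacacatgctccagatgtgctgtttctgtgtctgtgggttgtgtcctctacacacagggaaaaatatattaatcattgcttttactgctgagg
Col9a1, on the + strand at chr1:24177360-24177588, has no match of these motifs.
Col9a1: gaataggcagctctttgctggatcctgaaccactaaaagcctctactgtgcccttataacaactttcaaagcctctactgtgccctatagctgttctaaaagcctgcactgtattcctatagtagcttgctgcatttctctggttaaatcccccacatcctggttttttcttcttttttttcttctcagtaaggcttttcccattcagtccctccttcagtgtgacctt
Col9a2, on the + strand at chr4:121039316-121039565, has 2 matches of GGGCGG, of which 1 is on the other strand.
Col9a2: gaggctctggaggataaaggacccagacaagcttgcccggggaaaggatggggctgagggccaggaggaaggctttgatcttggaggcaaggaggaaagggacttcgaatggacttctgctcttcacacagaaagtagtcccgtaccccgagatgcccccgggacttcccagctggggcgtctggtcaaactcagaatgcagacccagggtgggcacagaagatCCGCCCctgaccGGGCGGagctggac

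Genes that make, bind or break down these chains were read in the same arrays. Of 19 tested genes of collagen biosynthesis, 5 were lower and 2 higher. The largest decreases were in Bmp1 (-4.01), which trims procollagen, Lox (-3.85), which cross-links fibres, and Adamts14 (-3.20). P3h2 (2.39) and Pcolce2 (2.33) were the 2 called higher. Serpinh1, the collagen chaperone of the endoplasmic reticulum, read 2.50, 2.56 and 3.87 at 6 days and -2.05, -1.93 and -2.63 at 8 weeks. It was lower without overlap, and with spots kept its change was -5.18. With spots kept, 11 of 27 genes of this list were lower and 1 higher, and Pcolce2 was no longer called (2.05). That fit called 15.4% of all mRNA probes lower and 12.8% higher.

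Of 10 tested basement membrane partners, 5 were lower and 0 higher, with Sparc (-3.79), Smoc2 (-3.32) and the perlecan gene Hspg2 (-3.19) changed most. Of 16 fibril partners, 7 were lower, among them Thbs2 (-5.50), Matn4 (-4.27) and Fbn1 (-4.17), and 1 was higher. Fbln2 was also lower, with 2 of its 8-week arrays on the floor. The gene called higher was Comp, a cartilage matrix protein, at least 11.2-fold higher. Of 12 tested receptors, Itga6 (-2.92) and Ddr1 (-2.65) were lower and 0 were higher. Of 9 tested genes of matrix breakdown, the membrane protease Mmp14 (-2.72) was lower and 0 were higher. With spots kept, 7 of 13 basement membrane partners, 12 of 24 fibril partners, 3 of 14 receptors and 4 of 13 breakdown genes were lower. In that fit 1 fibril partner and none of the rest was higher, beside 15.4% of all mRNA probes called lower and 12.8% higher. In the fit without flagged spots, the share called lower was 26.3% for biosynthesis, 43.8% for fibril partners, 16.7% for receptors and 11.1% for breakdown genes. The share over all mRNA probes was 13.7%. Loxl1, Loxl4, Matn1, Itga7, Bcam, Sgcd, Mmp3 and Mmp13 were not above background on any array, and Itga10 had no matched probe.

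**Figure D2:**
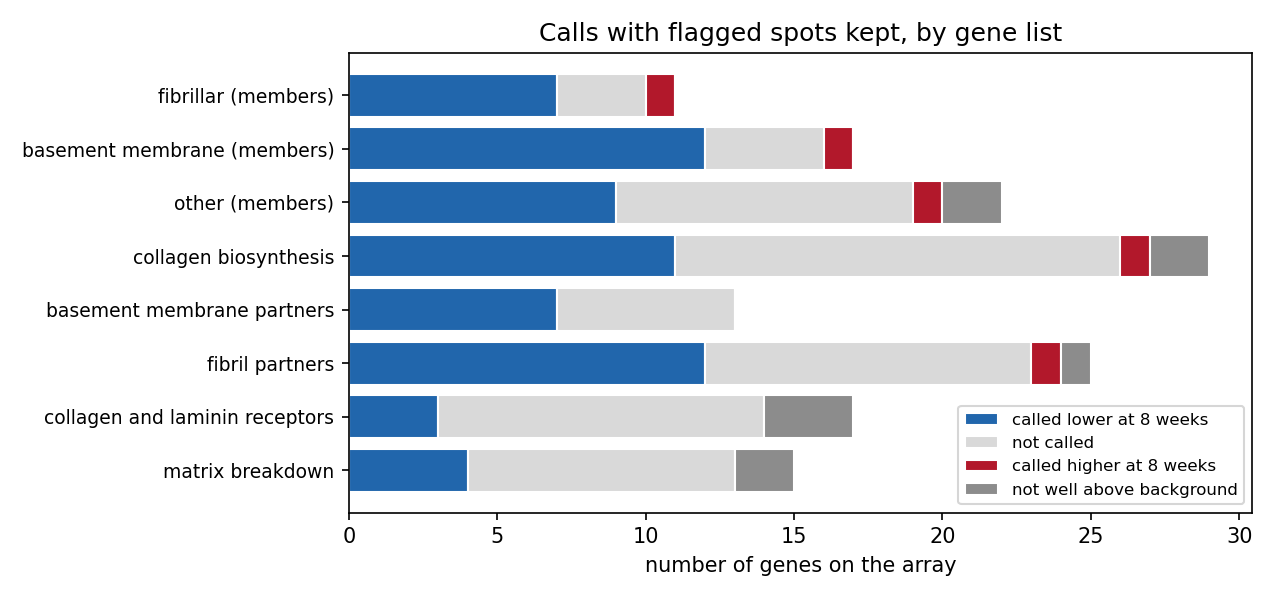
Number of genes of each class and partner list called lower, not called, called higher or not well above background at 8 weeks against 6 days, with flagged spots kept.

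Marker genes of testis cell types were read beside the chains, as summed scaled signal per array with flagged spots included, and their part in the result was not tested. Calls beside the sums are from the fit without flagged spots, where 13.7% of all mRNA probes were called lower and 12.6% higher. Sertoli cell markers summed to 56.4, 57.8 and 45.1 at 6 days and 16.7, 14.6 and 13.1 at 8 weeks, with Wt1 the brightest on all arrays, and 2 of 4 tested were lower. Peritubular myoid markers summed to 21.9, 22.2 and 27.3 at 6 days and 5.52, 4.6 and 6.90 at 8 weeks, with Myh11 the brightest on all arrays, and 0 of 6 were called. Without Myh11 the sums were 2.47, 2.78 and 3.39 at 6 days and 1.35, 0.935 and 1.03 at 8 weeks. The 6 tested genes stood at -2.31 (Myh11), -1.95 (Tagln), -1.91 (Acta2), -0.74 (Tpm2), 0.06 (Des) and 1.77 (Actg2). Interstitial fibroblast markers summed to 19.9, 20.7 and 24.5 at 6 days and 2.74, 2.55 and 2.65 at 8 weeks, with Tcf21 the brightest at 6 days and Clec3b at 8 weeks, and 1 of 4 was lower. All of these sums were lower on every 8-week array. Endothelial markers summed to 13.1, 15.0 and 21.4 at 6 days and 4.07, 3.68 and 5.52 at 8 weeks, with Egfl7 the brightest on 4 arrays and Cdh5 on 2, and 2 of 7 were lower. Macrophage markers summed to 8.22, 8.39 and 8.64 at 6 days and 6.99, 7.04 and 8.11 at 8 weeks, close together at the 2 ages, with C1qa the brightest on 4 arrays and Mrc1 on 2, and 0 of 3 were called. Leydig cell markers, with Hsd3b1 the brightest at 6 days and Insl3 at 8 weeks, summed to 31.7, 34.9 and 30.3 at 6 days and 74.3, 58.2 and 55.3 at 8 weeks, and 0 of 4 were called. With spots kept, Insl3 was called higher (3.49), as 1 of 7. Without Insl3 the sums ran the other way, 26.8, 29.6 and 28.2 at 6 days and 18.7, 18.9 and 20.1 at 8 weeks.

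Spermatid markers, with Tnp1 the brightest at 6 days and Prm2 at 8 weeks, summed to 0.649, 0.691 and 0.777 at 6 days and 1031, 1201 and 1401 at 8 weeks, and 5 of 5 tested were higher. Spermatocyte markers, with Tex101 the brightest on 4 arrays and Ldhc on 2, summed to 36.0, 31.8 and 35.4 at 6 days and 87.5, 96.3 and 113 at 8 weeks, and 1 of 5 was higher. Spermatogonia markers, with Kit the brightest on 4 arrays and Stra8 on 2, summed to 55.3, 53.0 and 59.0 at 6 days and 10.6, 11.6 and 10.0 at 8 weeks, and 1 of 3 was lower. Cartilage markers, with Cnmd the brightest on 5 arrays and Hapln1 on 1, summed to 1.39, 1.55 and 1.66 at 6 days and 1.21, 1.1 and 1.13 at 8 weeks, a small sum at both ages. Without Cnmd the sums were 0.802, 0.949 and 0.951 at 6 days and 0.228, 0.182 and 0.215 at 8 weeks, lower on every 8-week array. Of 8 tested cartilage markers, 2 were lower, Hapln1 (-5.12) and Chad (-2.46), and 1, Comp, was higher.

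Tissue that can come along with a dissected testis was read the same way. Epididymis markers summed to 5.71, 0.262 and 6.24 at 6 days and 0.186, 0.370 and 0.540 at 8 weeks, uneven at 6 days, with Adam7 the brightest on 4 arrays and Crisp1 on 2, and 0 of 4 were called. Without Crisp1 the sums were 0.304, 0.213 and 0.519 at 6 days and 0.133, 0.322 and 0.514 at 8 weeks. Fat markers, with Cidec the brightest on all arrays, summed to 0.935, 2.49 and 1.46 at 6 days and 0.375, 0.472 and 0.536 at 8 weeks, and 2 of 4 were lower. Mesothelium markers, with Wt1 again the brightest, summed to 25.4, 25.4 and 20.0 at 6 days and 7.75, 7.17 and 7.0 at 8 weeks, and 3 of 4 were lower. Without Wt1 the sums were 0.729, 0.549 and 1.07 at 6 days and 0.0845, 0.0756 and 0.180 at 8 weeks. Erythroid markers, with Hbb-bt the brightest on 5 arrays and Alas2 on 1, summed to 16.7, 20.7 and 18.5 at 6 days and 3.75, 5.66 and 4.30 at 8 weeks, and 1 of 3 was lower. With spots kept, the markers lower were 4 of 8 for Sertoli cells, 3 of 6 for fibroblasts, 3 of 5 for spermatogonia, 2 of 7 for endothelium and 2 of 8 for cartilage. They were 2 of 5 for fat, 3 of 5 for mesothelium and 2 of 4 for erythroid cells. Of all mRNA probes, 15.4% were called lower and 12.8% higher with spots kept. In that fit 6 of 6 spermatid, 1 of 6 spermatocyte and 1 of 8 cartilage markers were higher, and no myoid, macrophage or epididymis marker was called. Cnn1, Gfra1, Lcn8 and Rnase9 were not above background on any array, and Rhox5, Cd68 and Hbb-b1 had no matched probe.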

How the data were processed

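Poly(A)-primed RNA of whole testis was hybridized to 1-colour Agilent arrays, with 3 pools of C57/BL6 mice at 6 days and 3 at 8 weeks as biological replicates. The deposited scanner files hold spot signal as intensity, background-subtracted and detrended within each array by Agilent Feature Extraction 10.5.1.1, with no scaling between arrays. The deposited flags of the same files (well above background, saturated, outlier, control) are of the kind other, coded as whole numbers. A further table deposited by the authors is on the log2 scale, and the methods name quantile normalization for it. Its values equalled log2 signal with a floor of 5, less a constant per array, in 99.8% of cases within a tolerance of 0.001. Arrays correlated at 0.982 to 0.996 within an age and 0.751 to 0.768 between ages.

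Signals were divided by the 75th percentile of their array, given a common floor of -7.22 after log2, and fitted with limma 3.58.1 in R 4.3.3, with replicate number as a block. Outlier-flagged spots (6.11% to 30.7% of spots per array) were left out. Tested probes had 2 complete pairs and stood clearly over background on 1 or more arrays. P-values were adjusted by Benjamini and Hochberg over 24517 probes of lncRNA and mRNA, and a gene was called at a 5-fold change and an adjusted p of 0.05. The prior degrees of freedom were 2.10. Of the 300 spots of the 50 genes, 59 carried such a flag, and a second fit kept them. Called probes not above background on any array of an age are given as "at least" a fold change. Tables were handled with Python 3.11.15, numpy 2.4.6 and pandas 2.3.3, and figures drawn with matplotlib 3.10.9.

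Of 22464 mRNA probes, 21905 matched 1 gene symbol, and 54 of them covered the 50 genes. The other 5 collagen genes of the reference, Col6a3, Col12a1, Col20a1, Col6a5 and Col22a1, had no matched probe. Col18a1, Col25a1, Col2a1 and Col6a6 had 2 probes, and the one with the higher mean signal was counted. Members and lists were chosen with earlier results of these data known. Genes named in the text were the called genes of each class up to 6 by size, all called higher, the chains of types I, III, IV and IX, and the common laminin chains. For the other lists, up to 3 genes per direction were named.

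Scan and replicate share arrays: replicates 1 and 2 were scanned together. Over 14886 probes, deviations of the 6-day and 8-week arrays of replicates 1, 2 and 3 correlated at 0.341, 0.248 and 0.587, arrays of different replicates in the same scan at 0.286 and 0.323, and arrays of different scans at -0.492 to -0.376. Alternatives were quantile scaling, a median shift, no floor, a floor before scaling, normexp correction with an offset of 50, no filter, the authors' log2 values, 2-fold or no fold threshold, the methods' t-test, no block, scan as block, the mean of a gene's probes, flagged spots kept, and leaving out each replicate. Normexp used the median spot intensity, since the mean was not in the files. The PCR assays of the study and the long noncoding RNAs were not used here.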

Additional observations from a re-analysis of the deposited data

How the results depend on the processing

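Under the authors' log2 values, 29 genes were lower (19 in the fit reported) and 11 of the basement membrane class (6). That table tests 47 of the genes. It holds values for genes with spots flagged on some arrays, but Lama2, flagged on all 6, was not tested in it. Keeping flagged spots gave 12 basement membrane genes lower, and 12, 12 and 12 when each pair of arrays was then left out. Changed alone, kept spots gave 28 genes lower, quantile scaling 21, a median shift 20 and a floor before scaling 19, and these last 3 gave 6 in the basement membrane class. The runs with spots kept and a pair left out were added after seeing the data. They called 28 genes lower and 3 higher each time.

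Without a fold threshold, 5 genes were higher (3) and 13 of the other collagens lower (8), while 45.8% of all mRNA probes were lower and 29.7% higher. Leaving out replicates 1, 2 and 3 gave 6, 6 and 19 genes lower, a range of 6 to 19, and 1 to 2 genes higher. Of the 19, 13 already lacked replicate 3 in the fit reported. The ranges were 1 to 5 for fibrillar, 2 to 6 for basement membrane and 3 to 8 for other collagens. With no replicate block or pairing the counts were 19 lower and 3 higher, with 5, 6 and 8 lower by class. Normexp correction gave 15 lower and 2 higher, beside 6.85% and 9.93% of all mRNA probes. The authors' values called 20.9% of all mRNA probes lower and 12.3% higher. Counts were also smaller with the methods' t-test, at 17 and 2, or 14 and 2 after adjustment (8.37% and 9.78% of all mRNA probes). The calls lost with normexp were Col5a3 (-2.07), Col4a6 (-2.29), Col7a1 (-0.71), Lamc3 (-0.69) and, among those higher, Col19a1 (2.05). The value of Col5a3 then lay under the bound given for it, and so did those of Col7a1, Lamc3 and Col19a1. Col4a6 and Lamb3 also lost their calls with no filter on dim probes. Col4a6, Lama3 and Lamb3 lost theirs with the methods' t-test, and Col11a1, Col6a1 and Col8a2 after its adjustment. Col6a4 gained a call as lower with quantile scaling (-2.34), a median shift (-2.33) and the authors' values (-2.34). Col17a1 gained one with no floor, with quantile scaling and with the authors' values.

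Values changed sign for 4 genes, none of them called in the fit reported. Col11a2 (-0.11) was 0.70 with no floor, 0.64 with the floor before scaling, 0.66 with normexp and 0.38 with the authors' values. Col4a4 (-0.69) was 0.11 with normexp and -2.53 with no floor, where it was called lower. Col6a6 (0.37) was -0.00668 as the mean of its probes. Col25a1 (0.22) was -0.19 with quantile scaling, -0.0393 with a median shift and -0.0435 with the authors' values. The cause was not tested.

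The median of all mRNA probes went from -0.40 to -0.73 with quantile scaling and -0.65 with a median shift. It was 0.02 with normexp background correction and -0.84 with the authors' values, which differ in scaling, floor and probes tested at once. The median of the members relative to it was -1.97, and then -2.16, -1.98, -1.38 and -2.52. Of all mRNA calls, 52.1% were lower, against 40.8% with normexp and 63.0% with the authors' values. The medians of fibrillar, basement membrane and other genes were -3.01, -2.80 and -1.81 in the fit reported. They were -2.07, -2.15 and -0.71 with normexp, and -4.35, -3.12 and -2.36 with the authors' values. Leaving out replicate 1 gave -2.39, -1.03 and -0.65, and leaving out replicate 2 gave -2.31, -2.14 and -1.03. With no filter on dim probes, the median of the other collagens was -1.10.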
